A study of Vitis vinifera with 16 samples.

Results

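The late ovule of the grape variety Zhongpu No. 18 (ZP) was described by comparing the libraries of day 61 after flowering with those of day 55. The series held RNA from grape ovules of 2 varieties, ZP and Muscat Hamburg (MH), taken at days 35, 45, 55 and 61, with 2 libraries in each of the 8 groups. No treatment or transgene was given in the labels, every ovule was stored frozen with its skin left on, and libraries of total RNA were read on an Illumina NovaSeq X Plus. By its title, the study looks at how lignin is made in ovules of grapes with seeds and of stenospermocarpic ones, in which seeds are set but stop growing, and the labels do not say which variety is which. The 4 libraries of the comparison were 2 of ZP at day 61 and 2 of ZP at day 55, and MH at day 61 and at day 55 served to test whether a change differed between varieties. Whether both libraries of a group stem from different plants is not in the labels, so the p-values rest on library-to-library spread that may be technical only. Genes were taken when they reached 1 FPKM (fragments scaled to transcript length and library size) in at least 2 of the 16 libraries, and 12637 of the 13411 deposited genes did.

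An ovule becomes a seed when the fertilised embryo and the endosperm grow inside the integuments, which form the seed coat. In grape the inner layers of that coat collect proanthocyanidins (condensed tannins) while other layers lignify, and the embryo and endosperm fill with storage proteins and oil before they dry. Around the same weeks the berry passes veraison, the onset of ripening, when its green tissues lose chlorophyll and its walls soften. In bulk RNA, fewer cells of a type and less RNA per cell cannot be told apart.

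Below, each library's FPKM is given, and a change is the difference of mean log2(FPKM + 1), day 61 minus day 55, ± its standard error (n = 2 libraries a group). Adjusted p-values are those of limma with Benjamini-Hochberg adjustment over 12637 genes. Depth, read from the steps between low values, was 2.1e+07 and 2.13e+07 fragments in the ZP libraries of day 61 and 2.48e+07 and 3e+07 in those of day 55, within a range of 2e+07 to 3e+07 over all 16. One fragment in a transcript of 1 kb was thus worth 0.0333 to 0.0499 FPKM. Between libraries of the same day the median SD (log2) was 0.079 at day 61 and 0.131 at day 55. The 10 most abundant genes held 14.6% and 15.6% of the summed FPKM at day 61, against 9.09% and 10.2% at day 55.

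Between day 55 and day 61, 3963 of the 12637 genes (31.4%) changed in ZP at an adjusted p under 0.05. Of these, 1161 (9.19%) were higher at day 61 and 2802 (22.2%) were lower, and the median change over all tested genes was -0.093. At least 1 log2 unit separated the days for 263 higher and 723 lower genes, and at least 3 units for 8 and 21. Higher calls made up 29.3% of all calls as deposited, 44.5% after median-ratio scaling (1690 higher and 2109 lower) and 48.2% after quantile normalization (1841 and 1975). Both scalings set the middle of the libraries equal by construction, so the balance of higher against lower calls over all genes depends on that choice. After median-ratio scaling 13.4% of all tested genes were higher and 16.7% lower, and where that scaling moved a printed count of a gene group by over 1.5 times its counts are given.

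**Figure D1:**
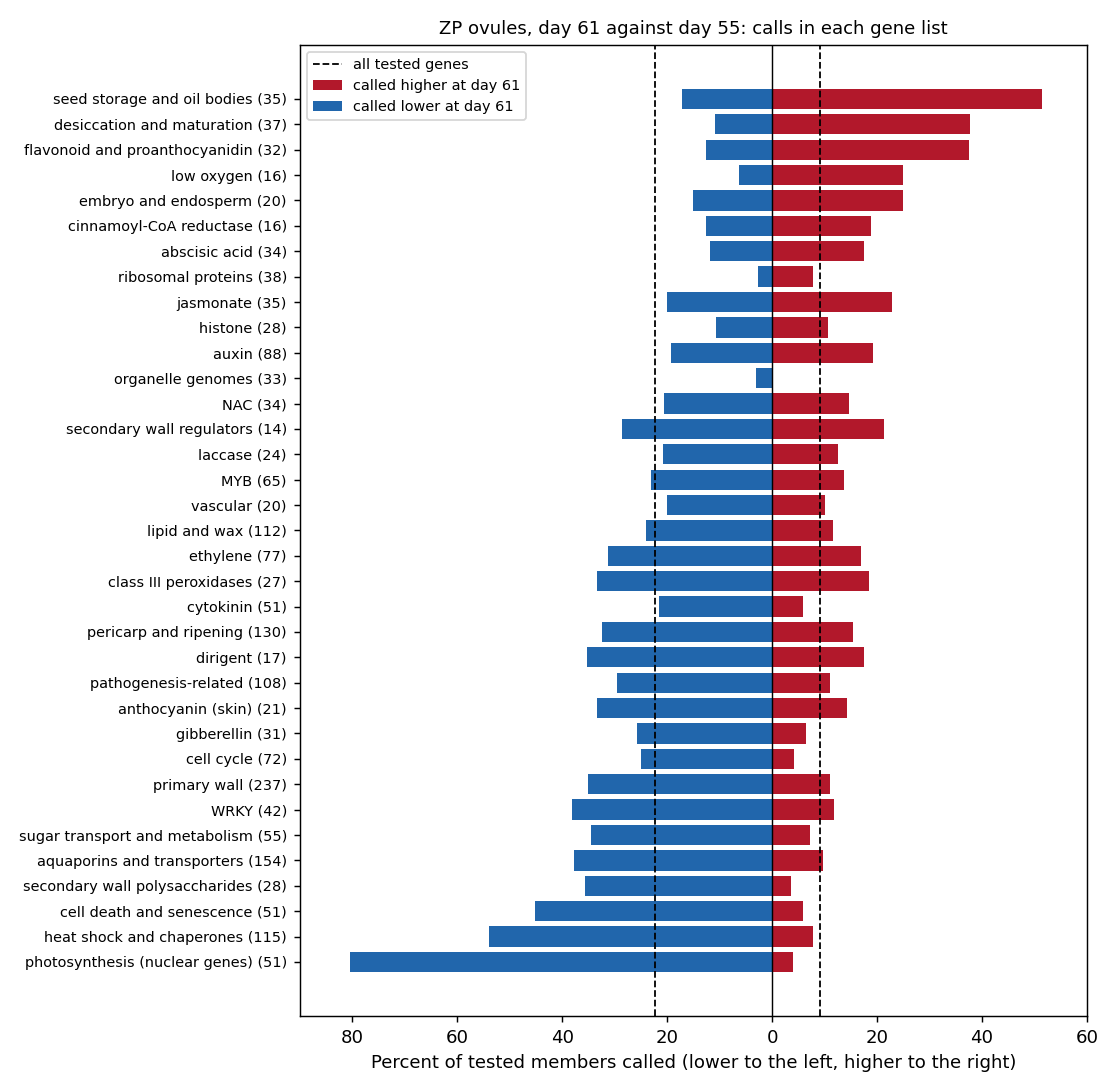
Percent of the tested members of each gene list (number in parentheses) that were called higher (right) or lower (left) in ZP at day 61 than at day 55, with dashed lines at the shares over all tested genes. Photosynthesis (80.4% lower) and heat shock genes (53.9% lower) stand at the bottom, and seed storage genes (51.4% higher), desiccation genes (37.8% higher) and flavonoid genes (37.5% higher) at the top.

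The plot of calls by gene list shows the groups that stand far from the dashed background lines. Lists were made from words in the gene descriptions, and a gene could be in several lists.

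Nuclear genes of photosynthesis were lower at day 61. Of 51 tested members 41 (80.4%) fell and 2 rose, with a median change of -1.39. Together they held 0.709% and 0.679% of the summed FPKM at day 61, against 1.51% and 1.83% at day 55. A gene of the light-harvesting complex of photosystem II, LOC100250504 (chromosome 12, positions 955664 to 956686), had 3.91 and 5.01 FPKM at day 61, against 60.3 and 89 FPKM at day 55. Its change was -3.77 ± 0.20 (adjusted p = 3.63e-08), and the libraries of the days were far apart. The gene of oxygen-evolving enhancer protein 1 (LOC100260811, chromosome 18, positions 9976423 to 9978048), which holds the manganese cluster of photosystem II in place, had 1.25 and 1.53 FPKM, against 26.9 and 33.6 FPKM, a change of -3.70 ± 0.13 (adjusted p = 4.32e-09). A second light-harvesting gene, LOC100252066, which overlaps another annotated gene, changed by -3.22 ± 0.19. The copies of this family are alike, and how shared reads were assigned is not given in the sources used here.

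The level was not steadily falling. LOC100250504 stood at 84.6 and 85.8 FPKM on day 35, 21.5 and 21.6 on day 45, 60.3 and 89 on day 55, and 3.91 and 5.01 on day 61. The summed share of the list went the same way, with 2.17% and 2.14% on day 35 and 1% and 0.939% on day 45. The 2 members that rose were a small subunit gene of Rubisco, the enzyme that fixes carbon (LOC100256536, 15.1 and 24.3 FPKM against 11.8 and 11.4 FPKM, 0.68 ± 0.24, adjusted p = 0.0452), and a phosphoribulokinase gene of the same cycle (LOC100256246, 5.69 and 6.01 FPKM against 0.449 and 0.371 FPKM, 2.28 ± 0.16). The second was named after its values were seen. The Rubisco gene did not pass without the second library of day 61 (0.35, adjusted p = 0.394), without either library of day 55 (adjusted p = 0.125 and 0.136) or with the pseudocount of 0.1 (adjusted p = 0.0789). Of 33 tested genes of the chloroplast and mitochondrial genomes, 0 were called higher and 1 lower in the same limma fit, and 0 and 0 after median-ratio scaling.

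Chaperone genes also fell, and did so in both varieties. Of 115 tested heat shock and chaperone genes, 62 fell (53.9%) and 9 rose in ZP, with a median of -0.65. In MH 60 fell (52.2%) and 9 rose (7.83%), against 14.4% and 9.22% of all tested genes there, and 49 fell in both. The difference between varieties was called higher in ZP for 15 (13%) and lower for 22 (19.1%). These shares are near the 10.6% and 16.3% of all tested genes. The most changed was a heat shock protein 83 gene (LOC100265661, chromosome 2, positions 235535 to 238960), of the family that folds signalling proteins. It had 5.85 and 6.76 FPKM in ZP at day 61, against 128 and 113 FPKM at day 55, a change of -4.06 ± 0.19 (adjusted p = 1.38e-08). In MH the change was -4.11, and the difference between varieties was 0.05 ± 0.27 (adjusted p = 0.925). On the earlier days this gene stood at 855 and 850 FPKM (day 35) and at 51.2 and 51.4 FPKM (day 45) in ZP.

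Of 41 tested small heat shock genes, whose products keep unfolded proteins from clumping, 25 fell and 4 rose; they were counted after their values were seen. A class I gene (LOC100242821) had 4.34 and 3.93 FPKM at day 61, against 41.7 and 62.3 FPKM at day 55, a change of -3.34 ± 0.24. A class II gene (LOC100268056) had 3.47 and 3.68 FPKM, against 31 and 59.1 FPKM, a change of -3.26 ± 0.30. A mitochondrial one (LOC100266263) had 11.9 and 11.3 FPKM, against 2.63 and 3.42 FPKM, the largest rise of the chaperone list (1.65 ± 0.14, adjusted p = 1.29e-06). Among the genes that rose was an abundant dnaJ homolog (LOC100233131), a cochaperone of the 70 kDa family. It had 4762 and 4375 FPKM at day 61, against 2686 and 2623 FPKM at day 55 (0.78 ± 0.14, adjusted p = 0.000746). A constitutive member of the 70 kDa family rose as well (LOC100253562, 894 and 856 FPKM against 607 and 558 FPKM, 0.59 ± 0.15). The summed share of the list was 2.69% and 2.48% of FPKM at day 61, against 3.03% and 2.86% at day 55. Without the first library of day 61 the rise of LOC100253562 did not pass (0.56, adjusted p = 0.0585), and after quantile normalization neither did that of LOC100253562 (0.35, adjusted p = 0.265) or LOC100233131 (0.46, adjusted p = 0.419).

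**Figure D2:**
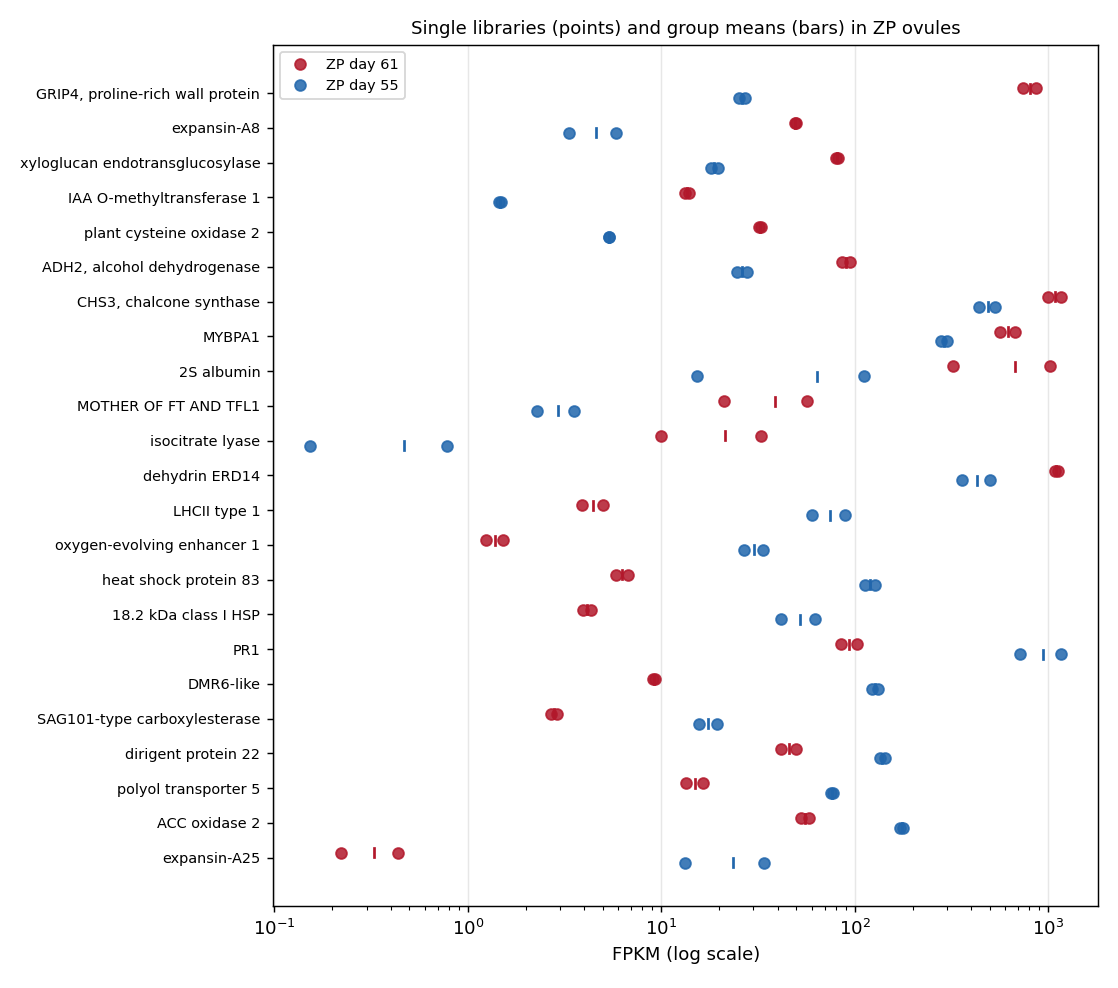
FPKM (log scale) of single libraries (points) and group means (bars) for 23 named genes in ZP at day 61 (red) and day 55 (blue). In all 23 the libraries of the days do not overlap, which held for 3962 of all 3963 called genes and does not set these apart. GRIP4, at 863 and 745 FPKM at day 61, rose, and PR1, at 85 and 103 FPKM, fell. The gene of 2S albumin, at 15.3 and 112 FPKM at day 55, shows a wide spread within a day.

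The plot of single libraries shows which of the named genes had tight libraries and which did not. Genes of pathogen defence and of senescence were among those that fell, with little spread in some but not in PR1. Of 108 tested pathogenesis-related genes 32 fell (29.6%) and 12 rose, and of 51 genes of cell death and senescence 23 fell (45.1%) and 3 rose. PR1 (chromosome 3, positions 9069911 to 9070596), a secreted defence protein, had 85 and 103 FPKM at day 61, against 717 and 1160 FPKM at day 55. The change was -3.27 ± 0.24 (adjusted p = 5.19e-07), after levels of 2.82 and 2.81 FPKM on day 35 and 167 and 159 FPKM on day 45. A DOWNY MILDEW RESISTANCE 6-like gene (LOC100854106, chromosome 16, positions 26724708 to 26728203), whose Arabidopsis relative hydroxylates salicylic acid, had 9.31 and 9.05 FPKM, against 123 and 132 FPKM (-3.66 ± 0.15, adjusted p = 4.32e-09). Both genes were thus highest at day 55 among the 4 days.

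MLP-like protein 34 (LOC100267971), of the major latex protein family, had 179 and 186 FPKM at day 61 and 1064 and 1111 FPKM at day 55, a change of -2.57 ± 0.15. A thaumatin-like gene (LOC100261232) changed by -2.59 ± 0.35 and Kunitz trypsin inhibitor 5 (LOC100246827), a protease inhibitor, by -3.33 ± 0.15. An aspartyl protease gene (LOC100243406) had 0.551 and 0.352 FPKM, against 14.7 and 12.2 FPKM, a change of -3.31 ± 0.10. Other defence genes rose. A PR-4 gene (LOC100255405), of a chitin-binding family, had 47.3 and 59.9 FPKM, against 9.3 and 15.4 FPKM (2.06 ± 0.46, adjusted p = 0.00376), and a gene described as endochitinase A (LOC132253710), which RefSeq lists as a long non-coding RNA, changed by 1.02 ± 0.17. With a pseudocount of 0.1 LOC132253710 did not pass (adjusted p = 0.0773).

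Of 9 tested senescence-associated carboxylesterase genes, whose Arabidopsis relative works with EDS1 in immune signalling, 9 fell and 0 rose in the limma fit. They were counted after their values were seen. All 9 belong to the cell death and senescence list, so they are part of its 23 falls and not a separate result. LOC100266391 had 2.69 and 2.91 FPKM at day 61, against 19.5 and 15.6 FPKM at day 55 (-2.28 ± 0.12, adjusted p = 3.81e-08). Endonuclease 2 (LOC100266396), a nuclease of dying cells in Arabidopsis, had 4.09 and 4.22 FPKM, against 17.9 and 16.3 FPKM (-1.81 ± 0.14). Metacaspase-9 (LOC100244812), a protease known from dying xylem cells, changed by -1.63 ± 0.16. The 3 members of the list that rose were a vacuolar-processing enzyme gene (LOC100260773, 0.81 ± 0.20), a cysteine protease gene (LOC100244387, 0.98 ± 0.30) and a BAG family cochaperone gene that overlaps another gene (LOC100246705, 0.36 ± 0.12). The vacuolar-processing enzyme, whose class matures storage proteins in seeds, had 31 and 50.7 FPKM at day 61, against 24.5 and 20.2 FPKM. None of these 3 passed without the second library of day 61 (adjusted p = 0.0989, 0.296 and 0.094, in the order named). The first also did not pass without the second library of day 55 (adjusted p = 0.0587), the second without the first library of day 55 (adjusted p = 0.193), and the third without the first library of day 55 (adjusted p = 0.31) or of day 61 (adjusted p = 0.141).

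Of 42 tested WRKY transcription factors, many of which act in defence and senescence, 16 fell (38.1%) and 5 rose (11.9%). Over all tested genes 22.2% fell and 9.19% rose. After median-ratio scaling 12 WRKY genes fell and 8 rose, while 16.7% of all tested genes fell and 13.4% rose. WRKY46 (LOC100263619) had 8.41 and 8.72 FPKM at day 61, against 31.9 and 28.3 FPKM at day 55 (-1.70 ± 0.11, adjusted p = 2.12e-07). WRKY70 (LOC100255013) changed by -1.33 ± 0.20 and WRKY50 (LOC100266400, which overlaps another gene) by -1.69 ± 0.16. WRKY23 (LOC100264006) rose, with 146 and 122 FPKM against 71 and 78.4 FPKM (0.83 ± 0.13).

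Primary wall genes changed in both directions, and the largest rise of all was among them. Of 237 tested members 83 fell (35%) and 26 rose (11%). GRIP4 (chromosome 5, positions 7769342 to 7770248), a grape ripening-induced proline-rich wall protein, had 863 and 745 FPKM at day 61, against 27.2 and 25.1 FPKM at day 55. The change was 4.89 ± 0.19 (adjusted p = 4.32e-09), and on days 35 and 45 the gene stood at 76.9 and 73.6 FPKM and at 24.2 and 24.6 FPKM. Expansin-A8 (LOC100244917, chromosome 13, positions 1570416 to 1572375), of the proteins that loosen walls, had 49.2 and 49.5 FPKM, against 3.33 and 5.83 FPKM (3.21 ± 0.19). A pectate lyase gene (LOC100243265), whose product cuts pectin, had 13.2 and 12.9 FPKM, against 0.889 and 1.24 FPKM (2.77 ± 0.13). A xyloglucan endotransglucosylase gene (LOC100265471), of the enzymes that cut and rejoin xyloglucan, had 80.5 and 82.2 FPKM, against 19.6 and 18.1 FPKM (2.05 ± 0.12).

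Other members of the same enzyme families fell. Expansin-A25 (LOC100246415) had 0.221 and 0.436 FPKM at day 61, against 34 and 13.2 FPKM at day 55, a change of -4.07 ± 0.29 (adjusted p = 3.25e-07). A polygalacturonase gene (LOC100255950), also a pectin-cutting enzyme, had 0.174 and 0.722 FPKM, against 29.4 and 9.19 FPKM (-3.63 ± 0.36). In both genes the first library of day 55 was the higher. A xyloglucan endotransglucosylase gene (LOC100255642) changed by -2.76 ± 0.13, and a proline-rich protein gene (LOC100267804) by -3.02 ± 0.35. The pericarp and ripening list, which shares 100 genes with the primary wall list, had 42 of 130 members lower (32.3%) and 20 higher, so berry-type wall genes moved both ways.

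Genes of flavonoid and proanthocyanidin synthesis rose. Of 32 tested members 12 (37.5%) rose and 4 fell, with a median of 0.21. CHS3 (chromosome 5, positions 15318167 to 15320484), a chalcone synthase that starts the pathway, had 1165 and 1000 FPKM at day 61, against 440 and 532 FPKM at day 55 (1.16 ± 0.20, adjusted p = 0.000534). A second chalcone synthase gene (LOC100232843) had 657 and 573 FPKM, against 297 and 337 FPKM (0.95 ± 0.16). Flavanone 3-dioxygenase (LOC100253950) had 312 and 280 FPKM, against 125 and 181 FPKM (0.97 ± 0.22), and ANR, the anthocyanidin reductase that makes epicatechin units of tannin, had 515 and 487 FPKM, against 360 and 365 FPKM (0.46 ± 0.12, adjusted p = 0.00963). MYBPA1, known in grape as a regulator of proanthocyanidin genes, had 673 and 562 FPKM, against 300 and 278 FPKM (1.09 ± 0.18). In all of these the libraries of the days did not overlap, which held for 3962 of all 3963 called genes. ANR did not pass without the first library of day 61 (0.42, adjusted p = 0.0697) or after quantile normalization (0.30, adjusted p = 0.184), nor did flavanone 3-dioxygenase without the first library of day 55 (0.71, adjusted p = 0.0553). The list held 1.54% and 1.38% of FPKM at day 61, against 0.968% and 0.999% at day 55, and 1.74% and 1.69% at day 35.

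Anthocyanin genes, markers of coloured skin, did not share this: 3 of 21 rose (14.3%) and 7 fell (33.3%). Over all tested genes 9.19% rose and 22.2% fell. An anthocyanidin 3-O-glucosyltransferase gene (LOC100242982), whose enzyme class makes anthocyanidins stable, had 7.01 and 6.1 FPKM at day 61, against 16.3 and 16.3 FPKM at day 55 (-1.20 ± 0.14). Of 11 tested stilbene genes, which make resveratrol and its relatives, 0 rose and 4 fell (36.4%) in the limma fit.

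Genes of the response to low oxygen rose in part. Of 16 tested members 4 (25%) rose and 1 fell, and after median-ratio scaling 7 rose and 1 fell. A plant cysteine oxidase 2 gene (LOC100260282, chromosome 17, positions 6681029 to 6684962), of the enzymes that sense oxygen, had 32.7 and 31.9 FPKM at day 61, against 5.39 and 5.36 FPKM at day 55 (2.39 ± 0.10, adjusted p = 6.14e-09). A second one (LOC100266451) had 68.4 and 68.1 FPKM, against 30.5 and 30.4 FPKM (1.14 ± 0.10). ADH2 (chromosome 4, positions 24523122 to 24533176), an alcohol dehydrogenase of fermentation, had 85.9 and 94.6 FPKM, against 24.6 and 27.8 FPKM (1.75 ± 0.13), and ADH3, named after its values were seen, had 372 and 346 FPKM, against 192 and 191 FPKM (0.91 ± 0.10). Outside the list, the ethylene response factor ERF073 (LOC100252208), of a group that answers low oxygen in Arabidopsis, rose by 1.12 ± 0.13. The first cysteine oxidase gene had stood higher still on day 35, at 39.1 and 38.4 FPKM.

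Transcripts of seed storage proteins and oil bodies rose in ZP, and stayed far below those of MH. Of 35 tested members 18 (51.4%) rose and 6 fell, with a median of 1.30. The list held 0.521% and 1.15% of FPKM at day 61, against 0.132% and 0.23% at day 55, while in MH it held 39.6% and 39% at day 61. A 2S albumin gene (LOC100252101, chromosome 19, positions 5917560 to 5918293) had 322 and 1020 FPKM at day 61, against 15.3 and 112 FPKM at day 55 (3.74 ± 1.29, adjusted p = 0.0427). Legumin A (LOC100241281) had 652 and 1473 FPKM, against 65 and 111 FPKM (3.52 ± 0.99), and a vicilin-like gene (LOC100852645) had 102 and 202 FPKM, against 4.73 and 27.7 FPKM (3.50 ± 0.83). A vicilin gene (LOC100853754) rose by 2.71 ± 0.27. When limma was fitted on only the ZP libraries, the 2S albumin (adjusted p = 0.122) and legumin A (adjusted p = 0.0808) did not pass. On only the 4 libraries compared, the 2S albumin (adjusted p = 0.081) and LOC100852645 (adjusted p = 0.0538) did not. Members that fell were a glutelin gene (LOC100249816, 32.3 and 31.5 FPKM against 70.6 and 60.9 FPKM, -1.02 ± 0.17) and a basic 7S globulin gene (LOC100259548, -0.85 ± 0.21). The globulin did not pass without the second library of day 55 (adjusted p = 0.0739), without the first of day 61 (adjusted p = 0.0621) or after quantile normalization (adjusted p = 0.0654). The 2S albumin did not pass without the first library of day 55 (2.35, adjusted p = 0.314) or without either library of day 61 (adjusted p = 0.0607 and 0.239). Legumin A did not pass without the first library of day 55 (adjusted p = 0.0975) or the second of day 61 (adjusted p = 0.118), and with a pseudocount of 0.1 neither gene passed (adjusted p = 0.155 for the albumin and 0.116 for the legumin). The vicilin-like gene LOC100852645 did not pass without the first library of day 55 (2.33, adjusted p = 0.0786) or the second of day 61 (3.01, adjusted p = 0.0559).

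The ZP libraries of 1 day differed among themselves in these genes. At day 61 the second library was above the first in 17 of the 19 storage and oil body genes that reached 100 FPKM in MH, by a median ratio of 1.98. Over all 1161 genes that rose the median ratio of these libraries was 1. The second library also held the larger share of storage transcripts on the other days, with 0.0528% and 0.0791% on day 35, 0.105% and 0.137% on day 45 and 0.132% and 0.23% on day 55. Cruciferin CRU1 (LOC100246409) and a second basic 7S globulin gene (LOC100240860), named after their values were seen, show the spread at day 55. Cruciferin had 50.8 and 223 FPKM at day 61, against 0.163 and 75 FPKM at day 55 (3.52 ± 1.92, adjusted p = 0.195), and the globulin had 19.8 and 45.9 FPKM, against 0.118 and 24.5 FPKM (2.55 ± 1.36, adjusted p = 0.184). In the second library of day 55 cruciferin, this globulin and the vicilin-like gene stood at 0.124%, 0.126% and 0.123% of the MH mean of day 61. Without the second library of day 61, 10 storage genes were called higher, and without the first library of day 55, 11. Without the second library of day 55 cruciferin passed (6.53, adjusted p = 0.0261), and so did this globulin (4.80, adjusted p = 0.0176). Most of the 19 genes stood above these percents in that library, at up to 10.8%. Whether part of the storage reads in ZP libraries came over from MH libraries, where the genes are very abundant, was not tested, so the storage levels and their rise in ZP hold only as measured in these libraries.

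**Figure D3:**
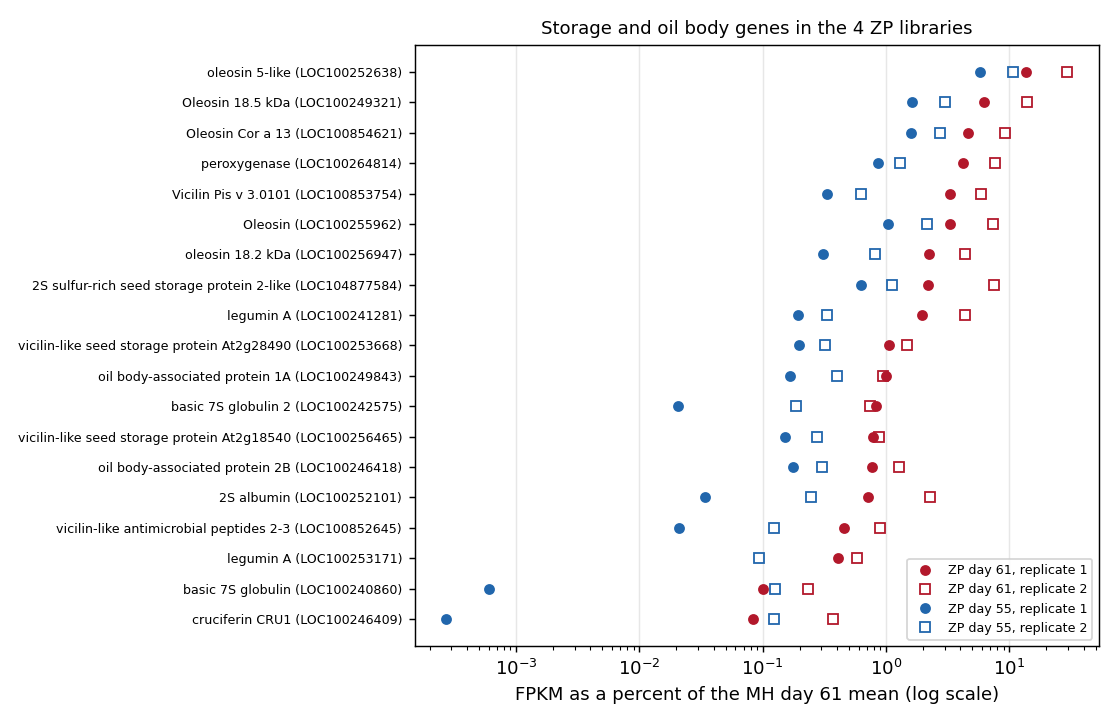
FPKM of 19 storage and oil body genes in the 4 ZP libraries of day 61 (red) and day 55 (blue), each as a percent of the MH mean at day 61 (log scale; legumin LOC100253171, listed at 0 in the first library of day 55, is not drawn there). At day 61 the first library (filled) lies between 0.084% and 13.6% and the second (open) between 0.235% and 29.6%, and at day 55 cruciferin and the basic 7S globulin are the genes with the widest gap between libraries.

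The plot of storage genes as a percent of MH shows that they did not share 1 ratio to MH. The 3 genes highest on that scale were oleosins, the coat proteins of oil bodies, while other oleosins lay lower. Of these 3, LOC100249321 had 163 and 363 FPKM at day 61, against 42.7 and 78.6 FPKM at day 55 (2.05 ± 0.50, adjusted p = 0.0072). It was named after its values were seen, and it did not pass without the first library of day 55 (adjusted p = 0.078) or the second of day 61 (adjusted p = 0.0922).

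Some regulators of the embryo rose beside the storage genes, and in most of those the second library of day 61 was again the higher. Of 20 tested embryo and endosperm genes 5 (25%) rose and 3 (15%) fell, with a median of 0.09. The list as a whole held 0.0615% and 0.074% of FPKM at day 61, against 0.0825% and 0.0685% at day 55. ABI3 (LOC100854233), which switches on maturation genes in embryos, had 8.73 and 17.5 FPKM at day 61, against 5.48 and 5.35 FPKM at day 55 (1.06 ± 0.22). WRI1 (LOC100250488), a regulator of oil synthesis, had 16.1 and 27.6 FPKM, against 9.7 and 10.1 FPKM (1.02 ± 0.20). The LEC1-type subunit NF-YB6 (LOC100855401) had 25.4 and 59.6 FPKM, against 10 and 19.2 FPKM (1.42 ± 0.37, adjusted p = 0.00968). When limma was fitted on only the 4 libraries compared, ABI3 (adjusted p = 0.0932), WRI1 (adjusted p = 0.0635) and NF-YB6 (adjusted p = 0.123) did not pass. NF-YB6 did not pass without the first library of day 55 (0.98, adjusted p = 0.116) or the second of day 61 (0.82, adjusted p = 0.133). Seed genes outside that list rose too. MOTHER of FT and TFL1 (LOC100853664, chromosome 17, positions 2860589 to 2862561), which acts on seed germination in Arabidopsis, had 21.1 and 56.7 FPKM, against 2.29 and 3.54 FPKM (3.21 ± 0.42).

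Isocitrate lyase (LOC100248231, chromosome 12, positions 7177772 to 7181268), an enzyme of the glyoxylate cycle that turns stored fat into sugar, had 9.93 and 32.7 FPKM, against 0.154 and 0.778 FPKM (3.74 ± 0.38, adjusted p = 7.18e-06). The seed vacuole aquaporin TIP3-2 (LOC100252897) had 16.4 and 38.1 FPKM, against 4.19 and 6.86 FPKM (2.03 ± 0.37). In all 6 of these seed genes the second library of day 61 was the higher. The MH mean at day 61 was 423 FPKM for isocitrate lyase, 821 FPKM for TIP3-2 and 38.2 FPKM for WRI1. As for the storage genes, whether part of their reads in ZP came over from MH libraries was not tested. Both HAIKU2 genes called, whose Arabidopsis relative promotes endosperm growth, fell (LOC100260256, -0.86 ± 0.23, and LOC109121676, -0.70 ± 0.14), and the first of them did not pass without the first library of day 55 (adjusted p = 0.109) or the second of day 61 (adjusted p = 0.0809). Without the first library of day 55, 2 embryo and endosperm genes were called higher.

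Desiccation and maturation genes rose without that gap between libraries. Of 37 tested members 14 (37.8%) rose and 4 fell, with a median of 0.42, and among the 14 the median ratio of the second to the first library of day 61 was 1.07. Dehydrin ERD14 (LOC100254126), a protein that protects cells as they lose water, had 1120 and 1088 FPKM at day 61, against 357 and 498 FPKM at day 55 (1.39 ± 0.18, adjusted p = 5.33e-05). 1-Cys peroxiredoxin (LOC100259564), an antioxidant of maturing seeds, had 12.5 and 13 FPKM, against 1.4 and 3.63 FPKM (2.04 ± 0.29). In MH, 17 genes of the list reached a mean of 100 FPKM at day 61. The ZP libraries of day 61 stood at a median of 0.98% and 1.38% of those means. ERD14 was far above that, at 161% and 156%, and 1-Cys peroxiredoxin stood at 1.53% and 1.58%. Whether part of these reads came over from MH libraries was not tested. Galactinol synthase 1 (LOC100255485), which starts raffinose synthesis, fell to 3.25 and 2.07 FPKM, against 12.2 and 16 FPKM (-2.05 ± 0.19). In MH 21 of the 37 rose and 1 fell, and without the second ZP library of day 61 or the first of day 55 the count in ZP was 7.

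**Figure D4:**
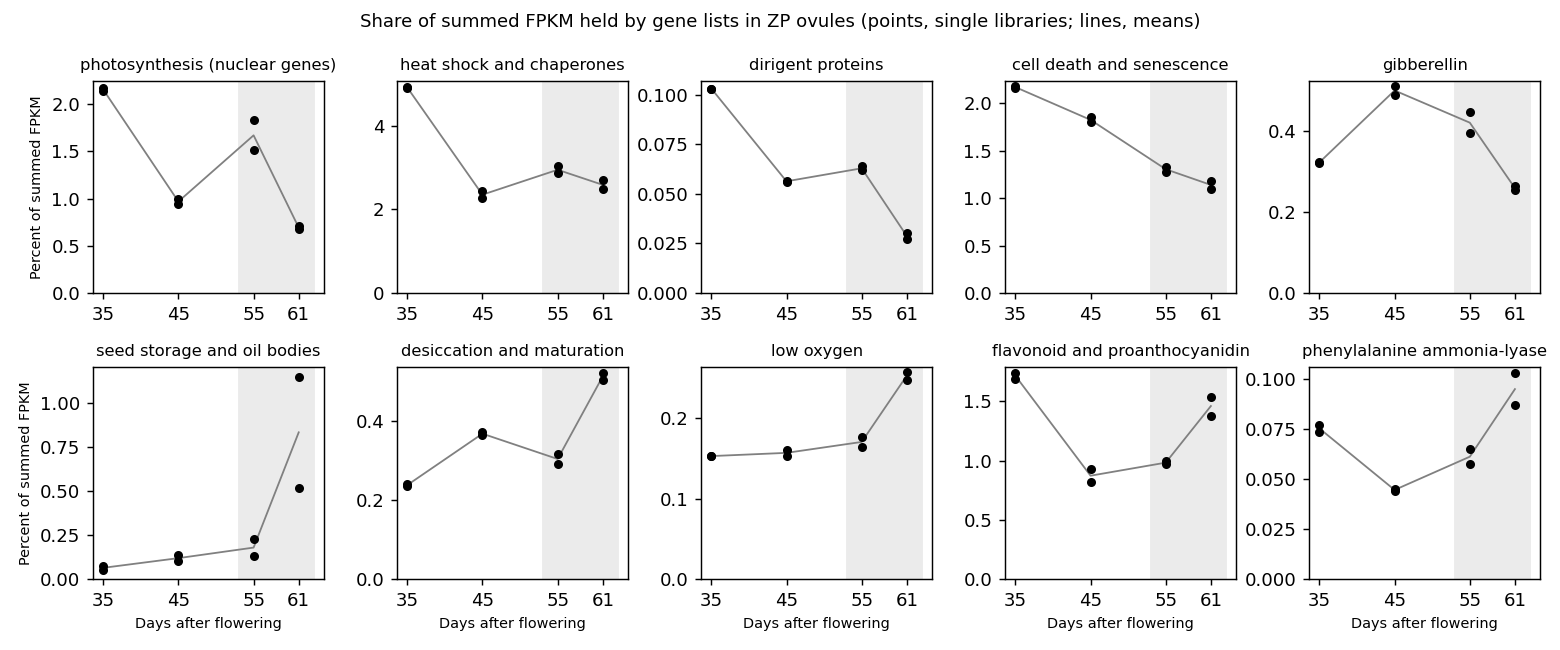
Percent of the summed FPKM held by 10 gene lists in the ZP libraries over the 4 days (points, single libraries; lines, means; days 55 and 61 shaded). Photosynthesis genes fell to 0.709% and 0.679% at day 61 after 1.51% and 1.83% at day 55, and storage, desiccation, low oxygen and flavonoid genes held more at day 61 than at day 55.

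The plot of list shares over the days places these changes in the course of ZP. Phenylalanine ammonia-lyase genes, at the entry of lignin and flavonoid synthesis, held 0.103% and 0.0871% at day 61, against 0.065% and 0.0576% at day 55. Of the 7 tested genes 2 rose and 2 fell, with a median of -0.27, and LOC100241575 alone had 298 and 257 of the summed 356 and 310 FPKM at day 61.

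Monolignol synthesis, the path to the building blocks of lignin, moved unevenly. For each step the most abundant gene in ZP is given. At the entry, phenylalanine ammonia-lyase (LOC100241575, chromosome 6, positions 3281243 to 3284788) had 298 and 257 FPKM at day 61, against 159 and 157 FPKM at day 55 (0.80 ± 0.12, adjusted p = 0.000204). Caffeoyl-CoA O-methyltransferase (LOC100243978), which adds the methyl group of G-type units, had 225 and 209 FPKM, against 140 and 155 FPKM (0.56 ± 0.15, adjusted p = 0.0104). A cinnamoyl-CoA reductase-like gene (LOC100241301), of the first step given over to lignin, had 225 and 223 FPKM, against 142 and 141 FPKM (0.66 ± 0.11). Caffeoyl-CoA O-methyltransferase did not pass without the first library of day 55 (adjusted p = 0.0718) or the first of day 61 (adjusted p = 0.075). The ferulate 5-hydroxylase gene (LOC100267863), which opens the branch to S-type units, fell to 8.95 and 6.36 FPKM, against 15.7 and 16.8 FPKM (-1.01 ± 0.16, adjusted p = 0.000403).

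The most abundant genes of the other 6 steps did not pass the test. The changes were 0.15 ± 0.12 for cinnamate 4-hydroxylase (LOC100253493), 0.50 ± 0.18 for 4CL, a 4-coumarate-CoA ligase that overlaps another gene (adjusted p = 0.053), and -0.34 ± 0.30 for the hydroxycinnamoyltransferase (LOC100265530). They were -0.29 ± 0.22 for coumarate 3-hydroxylase (LOC100263633), 0.06 ± 0.33 for caffeoylshikimate esterase (LOC100261504) and 0.04 ± 0.13 for the cinnamyl alcohol dehydrogenase (LOC100257308). 4CL passed without the second library of day 55 (0.70, adjusted p = 0.0267). The last of the 6 was the most abundant per length, at 550 and 518 FPKM in ZP at day 61 and 484 and 556 FPKM at day 55, and these values overlapped. Among all tested genes of these steps, 1 of 5 hydroxycinnamoyltransferases rose and 3 fell, 1 of 8 caffeoylshikimate esterases rose and 2 fell, and 1 of 5 cinnamyl alcohol dehydrogenases rose and 0 fell.

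Enzymes that join monolignols changed in both directions. Of 24 tested laccases 3 rose (12.5%) and 5 fell (20.8%), near the 9.19% and 22.2% of all tested genes. Of 27 class III peroxidases 5 rose (18.5%) and 9 fell (33.3%), and of 17 dirigent proteins 3 rose (17.6%) and 6 fell (35.3%). Laccase-15 (LOC100258638) had 69.2 and 71.4 FPKM at day 61, against 32.2 and 24.2 FPKM at day 55 (1.30 ± 0.15). Laccase-4 (LOC100240808), a lignin laccase in Arabidopsis, had 10.4 and 10.4 FPKM, against 24.8 and 23.1 FPKM (-1.13 ± 0.19), and laccase-17 (LOC100256283), its partner there, had 22.5 and 22.1 FPKM, against 43.1 and 34.9 FPKM (-0.77 ± 0.15). Dirigent protein 22 (LOC100265620), of a family that steers phenol coupling, had 41.8 and 49.7 FPKM, against 135 and 143 FPKM (-1.59 ± 0.16). Peroxidase 15 (LOC100260291) rose to 148 and 149 FPKM, against 80 and 89.8 FPKM (0.80 ± 0.10).

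Secondary wall polysaccharide genes showed small falls that depended on the scaling. Of 28 tested members 10 (35.7%) fell and 1 rose, with a median of -0.29. After median-ratio scaling 5 fell and 1 rose, and 16.7% of all tested genes then fell. The cellulose synthase genes CesA4 (LOC100241197, 64.1 and 61.1 FPKM against 106 and 93.6 FPKM, -0.66 ± 0.15) and CesA7 (LOC100248512, -0.51 ± 0.13) make the cellulose of secondary walls. COBRA-like protein 4 (LOC100244586), which helps to order that cellulose, changed by -0.69 ± 0.15. Among 14 secondary wall regulators 3 rose (21.4%) and 4 fell (28.6%), against 9.19% and 22.2% of all tested genes. NAC73 (LOC100267787) had 15.8 and 14.5 FPKM at day 61, against 7.27 and 7.34 FPKM at day 55 (0.96 ± 0.18), and NAC30 (LOC100252228), whose Arabidopsis relative directs xylem vessel formation, had 72.3 and 72.4 FPKM, against 109 and 97.1 FPKM (-0.50 ± 0.15). NAC30 did not pass without the first library of day 55 (adjusted p = 0.136) or without either library of day 61 (adjusted p = 0.0895 and 0.0899), nor CesA7 without the second library of day 61 (adjusted p = 0.0957) or after median-ratio scaling (-0.36, adjusted p = 0.0554). Of 20 vascular markers 2 rose (10%) and 4 fell (20%), near the 9.19% and 22.2% of all tested genes.

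Hormone genes changed in both directions within most lists. Of 88 auxin genes 17 rose and 17 fell (19.3% each), and after median-ratio scaling 18 rose and 10 fell. Indole-3-acetate O-methyltransferase 1 (LOC100258858, chromosome 19, positions 7316054 to 7318876), which methylates auxin, had 14 and 13.2 FPKM at day 61, against 1.49 and 1.45 FPKM at day 55 (2.56 ± 0.10, adjusted p = 4.32e-09), and stood under 1 FPKM on days 35 and 45. IAA1 (LOC100247336), a repressor of auxin response, rose by 1.34 ± 0.21. GH3.6 (LOC100250242), which ties auxin to amino acids, fell to 7.66 and 6.16 FPKM, against 24.1 and 22.6 FPKM (-1.63 ± 0.13).

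Of 77 ethylene genes 24 fell (31.2%) and 13 rose. ACC oxidase 2 (LOC100256784), the last enzyme of ethylene synthesis, had 58.2 and 52.8 FPKM at day 61, against 172 and 178 FPKM at day 55 (-1.64 ± 0.14, adjusted p = 1.33e-06). Of 31 gibberellin genes 8 fell (25.8%) and 2 rose (6.45%), near the 22.2% and 9.19% of all tested genes. After median-ratio scaling 7 gibberellin genes fell and 6 rose. A gibberellin 3-beta-dioxygenase gene (LOC100265167), which makes active gibberellin, had 6.41 and 5.18 FPKM, against 20.1 and 19.7 FPKM (-1.63 ± 0.13), and a gibberellin 2-beta-dioxygenase gene (LOC100244543), which inactivates it, had 50 and 43 FPKM, against 79.7 and 74.9 FPKM (-0.72 ± 0.13). Of 34 abscisic acid genes 6 rose (17.6%) and 4 fell (11.8%), against 9.19% and 22.2% of all tested genes. NCED2, of the enzymes that set abscisic acid synthesis, had 16.8 and 13.8 FPKM, against 4.67 and 5.01 FPKM (1.48 ± 0.13), and zeaxanthin epoxidase (ZEP), an earlier step, fell by 0.65 on the log2 scale. Of 51 cytokinin genes 3 rose (5.88%) and 11 fell (21.6%, near the 22.2% of all genes), against 6 and 6 after median-ratio scaling. Of 35 jasmonate genes 8 rose (22.9%) and 7 fell (20%).

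Transporter genes that changed were mostly lower, as were all called genes (2802 of 3963 lower). Of 154 tested aquaporin and transporter genes 58 fell (37.7%) and 15 rose (9.74%), against 22.2% and 9.19% of all tested genes. Of 55 sugar genes 19 fell (34.5%) and 4 rose (7.27%), or 17 and 8 after median-ratio scaling. Polyol transporter 5 (LOC100852699) had 16.5 and 13.5 FPKM at day 61, against 77.4 and 75.9 FPKM at day 55 (-2.28 ± 0.13, adjusted p = 6.3e-08). A hexose transporter gene (LOC100233083) had 50.1 and 45.1 FPKM, against 152 and 152 FPKM (-1.66 ± 0.11), and HT7 had 17.1 and 16.6 FPKM, against 48.3 and 46.3 FPKM (-1.44 ± 0.11). Sucrose-phosphate synthase (LOC100241955), which makes sucrose, rose to 85.1 and 78.6 FPKM, against 50.6 and 41.4 FPKM (0.82 ± 0.17). An abundant gene of the NRT1/PTR family (LOC100258696), which carries nitrate and other small molecules, had 513 and 518 FPKM, against 224 and 221 FPKM (1.21 ± 0.10).

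Among other regulators, NAC35 (LOC100241839) had 4.51 and 3.2 FPKM at day 61, against 35.6 and 35.7 FPKM at day 55 (-2.93 ± 0.13, adjusted p = 9.12e-09). NAC56 (LOC100248744) was abundant and rose, with 412 and 351 FPKM against 203 and 204 FPKM (0.90 ± 0.12). MYB24 (LOC100259502) fell by 1.51 ± 0.13 on the log2 scale. Of 72 cell cycle genes 18 fell (25%, near the 22.2% of all genes) and 3 rose (4.17%). Of 28 histones 3 rose (10.7%, near the 9.19% of all genes) and 3 fell (10.7%). Of 38 ribosomal protein genes 3 rose (7.89%) and 1 fell (2.63%). After median-ratio scaling 11 cell cycle genes fell and 6 rose, 3 histones rose and 1 fell, and 5 ribosomal protein genes rose and 1 fell. A glutathione S-transferase gene (LOC100261799), of a family that couples glutathione to small molecules, had 19.1 and 20.2 FPKM at day 61, against 0.954 and 1.25 FPKM at day 55 (3.30 ± 0.30, adjusted p = 2.99e-06).

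Markers of the ovule and seed coat were present on both days. Of 10 tested members 2 rose (20%) and 2 fell (20%), against 9.19% and 22.2% of all tested genes. After median-ratio scaling 3 rose and 1 fell. The 2 that rose were ANR (0.46 ± 0.12) and a putative anthocyanidin reductase gene (LOC100241597, 0.35 ± 0.12). The list held 0.27% and 0.243% of FPKM at day 61, against 0.23% and 0.213% at day 55. Members that were not called include the 2 that follow. TRANSPARENT TESTA 16 (LOC100244209), a seed coat regulator in Arabidopsis, had 60.4 and 59.5 FPKM at day 61, against 68.9 and 65.9 FPKM at day 55 (-0.17, adjusted p = 0.412). The BEL1 homolog (LOC100262204), which shapes ovule integuments there, had 32.2 and 25.7 FPKM, against 28.3 and 26.3 FPKM (0.07, adjusted p = 0.789). Both were named after their values were seen. The libraries also carried pericarp-type, photosynthetic and skin-type transcripts, whose counts are given above, and their part in any change was not tested.

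The same days in MH gave a different set of changes. There 2988 genes changed (23.6%), of which 1165 were higher (9.22%) and 1823 lower (14.4%), and the difference of the changes (ZP minus MH) was called for 3401 genes (26.9%), 1335 higher (10.6%) and 2066 lower (16.3%). Genes higher in both varieties numbered 244, which is 21% of the ZP calls and 20.9% of the MH calls, and genes lower in both numbered 557, 19.9% and 30.6%. Another 164 genes rose in ZP and fell in MH, and 184 fell in ZP and rose in MH. Of the genes that rose in ZP 683 were called for the difference, and of those that fell 1519. Among the 1519, 812 (53.5%) stood under 1 FPKM in all 4 MH libraries of these days, where little could fall.

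**Figure D5:**
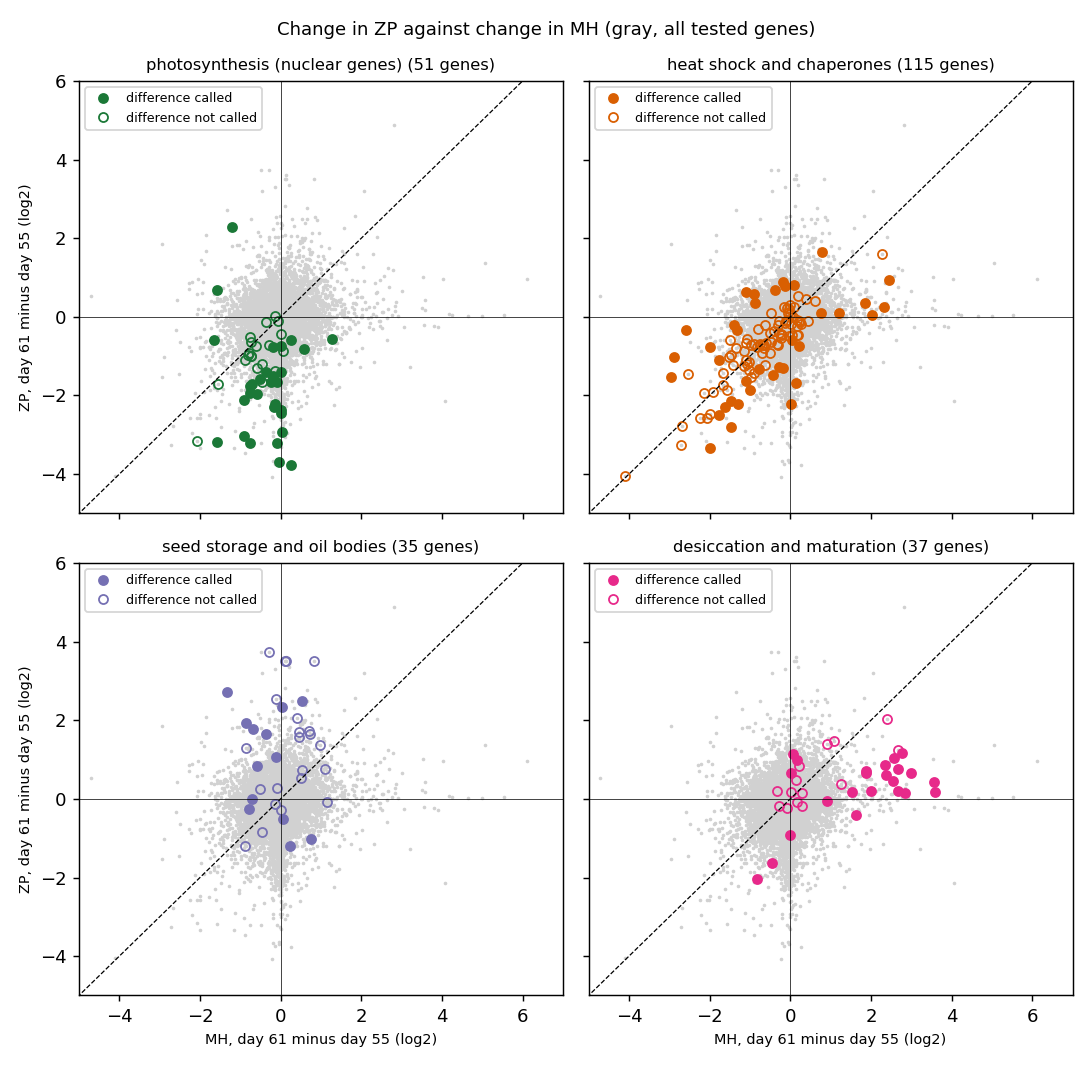
Change from day 55 to day 61 (log2) in ZP (vertical) against that in MH (horizontal) for 4 gene lists (colours; filled where the difference was called) and all 12637 tested genes (gray). Many heat shock genes lie near the dashed line of equal change, photosynthesis and storage genes spread along the ZP axis, and desiccation genes along the MH axis.

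The plot of change in ZP against change in MH shows the lists taking different courses. For photosynthesis the difference was lower in ZP for 28 of 51 genes and higher for 3, and 11 of the 27 that both fell in ZP and fell more than in MH were under 1 FPKM throughout MH. LOC100250504, for example, had 0.265 and 0.622 FPKM in the MH libraries of day 61, against 0.284 and 0.0977 FPKM in those of day 55. For desiccation genes the difference was lower in ZP for 20 of 37 and higher for 3. For storage genes it was higher for 10 of 35 and lower for 3, and the large rises of 2S albumin (difference 4.04, adjusted p = 0.125) and legumin A (3.38, adjusted p = 0.0954) did not pass. Secondary wall polysaccharide genes fell in MH as well (12 of 28), and the difference was higher in ZP for 8 and lower for 0 at an adjusted p under 0.05.

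Single genes stood further apart. MRIP1, a proline-rich wall protein, had 77.8 and 63.9 FPKM in ZP at day 61, against 35.3 and 35.7 FPKM at day 55 (0.97 ± 0.27), while in MH it had 1433 and 1765 FPKM at day 61, against 21.8 and 22.2 FPKM at day 55. Its change in MH was 6.11 and the difference -5.14 ± 0.38 (adjusted p = 1.16e-06). Snakin-2 (LOC100266028), an antimicrobial peptide gene of the gibberellin-regulated family, had 313 and 335 FPKM in ZP at day 61, against 661 and 929 FPKM at day 55 (-1.27 ± 0.35). In MH it had 64.4 and 38.6 FPKM, against 6.81 and 2.81 FPKM, a change of 3.22, and the difference was -4.50 (adjusted p = 3.23e-05). The fall of snakin-2 in ZP did not pass without the second library of day 55 (adjusted p = 0.104) or without either library of day 61 (adjusted p = 0.0727 and 0.0551), nor after median-ratio scaling (adjusted p = 0.0647). The rise of MRIP1 in ZP did not pass without either library of day 55 (adjusted p = 0.0645 and 0.0548) or the first of day 61 (adjusted p = 0.104), nor with a pseudocount of 0.1 (adjusted p = 0.277). Beta-glucosidase 12 (LOC100252705) had 72.4 and 105 FPKM in ZP, against 52.7 and 42.1 FPKM (0.88 ± 0.19). In MH it had 71.3 and 56.7 FPKM, against 265 and 336 FPKM, a change of -2.21 (difference 3.09, adjusted p = 4.15e-06). GRIP4 rose in MH too, by 2.82, and the difference was 2.07.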

How the data were processed

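Ovule RNA of 2 grape varieties at 4 days was measured in 16 libraries, grouped by the labels. The deposited table holds FPKM, per the file headers; the aligner, counting tool, strand setting and build are not given in the sources used here. Positions come from that table, and 12540 gene IDs matched RefSeq assembly ASM3070453v1 with equal starts and ends.

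A gene was tested if 2 or more libraries reached 1 FPKM. On log2(FPKM + 1), limma 3.58.1 (R 4.3.3) with a trend in its prior variance estimated 8 group means from 16 libraries (8 residual degrees of freedom). Tests were two-sided with Benjamini-Hochberg adjustment, and a call needed an adjusted p below 0.05 whatever its fold. This scale understates changes of low genes. The fit was tested on simulated data. The members, the 46 gene lists and the naming rule were chosen with earlier results of these data known. The rule took the 10 largest rises and falls with a mean of at least 10 FPKM, up to 3 called genes a direction from each list with 3 or more calls, the most abundant gene of each monolignol step, and the 5 largest differences between varieties each way; some were left out for length. Reads of near-identical gene copies are uncertain. The alternatives changed the pseudocount, filter, scaling, libraries, prior and replicate block. No sequences were used here.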

Additional observations from a re-analysis of the deposited data

Results flagged for a closer look

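The results below stand out because the change from day 55 to day 61 differed between ZP and MH, by the limma contrast of the 2 changes (ZP minus MH, adjusted p under 0.05). The contrast was called for 3401 genes, 1335 higher and 2066 lower in ZP. Of the 1519 called genes that fell in ZP, 812 (53.5%) stood under 1 FPKM in all 4 MH libraries of these days. Of the 683 that rose, 159 (23.3%) did. MH could change little there. Named genes that low in MH include LOC100250504, LOC100252066, oxygen-evolving enhancer protein 1, the aspartyl protease and expansin-A25. They also include the polygalacturonase, LOC100255642, NAC35, MYB24 and the auxin methyltransferase. The values that follow are these differences of changes (log2) for the genes named in the text.

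Among photosynthesis genes the difference was -4.04 for LOC100250504, -3.67 for oxygen-evolving enhancer protein 1 and -3.13 for LOC100252066, against 2.25 for the Rubisco gene and 3.48 for phosphoribulokinase. Among chaperones it was -1.35 for the class I small heat shock gene, 0.92 for the dnaJ homolog, 1.5 for the constitutive 70 kDa gene and 0.65 for the BAG family gene. It was 0.88 for the mitochondrial small heat shock gene.

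Of 108 pathogenesis-related genes the difference was lower for 29 and higher for 12. Of the 21 that also fell in ZP, 14 stood under 1 FPKM in all 4 MH libraries of these days. The difference was -3.46 for the DOWNY MILDEW RESISTANCE 6-like gene, -3.25 for PR1, -3.06 for the thaumatin-like gene, -2.52 for endochitinase A, -2.18 for the Kunitz inhibitor, -0.96 for MLP-like protein 34 and -4.50 for snakin-2. It was -2.39, -2.31 and -2.04 for LOC100250236, LOC100257078 and EDS1, -1.57 for the salicylate carboxymethyltransferase and -0.53 for isochorismate synthase 2. It was -3.31 for the aspartyl protease, -2.28 for LOC100266391, -1.61 for endonuclease 2, -0.80 for metacaspase-9 and 0.82 for the vacuolar-processing enzyme. WRKY46 gave -1.83, WRKY50 -1.18 and WRKY23 0.66.

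Among wall genes the difference was 2.07 for GRIP4, 1.15 for expansin-A8, 2.11 for the pectate lyase and 2.02 for LOC100265471. It was -5.14 for MRIP1, -3.85 for expansin-A25, -3.58 for the polygalacturonase, -2.82 for LOC100255642 and -2.81 for LOC100267804. Of the 53 primary wall genes that fell in ZP and fell more than in MH, 26 stood under 1 FPKM throughout MH. For lignin and secondary wall genes it was 0.76 for caffeoyl-CoA O-methyltransferase, 1.00 for the cinnamoyl-CoA reductase-like gene, -1.11 for ferulate 5-hydroxylase, 0.65 for laccase-15, 1.39 for peroxidase 15 and -1.43 for dirigent protein 22. It was 0.65 for CesA4, 0.73 for COBRA-like protein 4, 1.16 for NAC73 and -0.70 for NAC30.

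Flavonoid genes gave 0.82 for CHS3 and 1.06 for MYBPA1, while the anthocyanidin glucosyltransferase gave -2.32. The seed coat marker TRANSPARENT TESTA 16, whose change in ZP was not called, gave 1.18. Low oxygen genes gave 2.38 and 1.40 for the cysteine oxidases LOC100260282 and LOC100266451, 1.80 for ADH2 and 0.89 for ERF073. Whether reads that came over from MH libraries had a part in the values of seed genes was not tested. Seed genes gave 4.24 for isocitrate lyase, 4.05 for vicilin LOC100853754, 3.67 for MOTHER of FT and TFL1, 2.18 for TIP3-2, 1.85 for NF-YB6, 1.23 for WRI1 and 1.00 for ABI3. They gave -1.77 for the glutelin, -1.23 for galactinol synthase 1 and -0.75 for HAIKU2 gene LOC109121676.

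Hormone genes gave 2.57 for the auxin methyltransferase, 0.92 for IAA1, -2.19 for GH3.6, -1.32 for ACC oxidase 2, -1.80 and -1.15 for the gibberellin 3-beta- and 2-beta-dioxygenases and 0.79 for NCED2. Transporters gave -2.42 for polyol transporter 5, -1.13 for LOC100233083, -0.58 for HT7 and 0.88 for the NRT1/PTR gene. Of the remaining genes, NAC35 gave -2.73, MYB24 -1.51, the glutathione S-transferase 3.43, beta-glucosidase 12 3.09, adagio protein 3 1.92, the cold-regulated genes LOC100255572 and LOC100854716 1.16 and 1.57, and LUX 1.26.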

How the results depend on the processing

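Of 113 named genes called in ZP, 88 kept their call under every alternative run. The largest loss was with the 4 ZP libraries alone, where 15 of 123 named genes no longer passed. For genes changed in ZP (3963, with 1161 higher and 2802 lower), a mean of at least 10 FPKM left 2250 calls (1461 lower), fitting only the 4 libraries compared left 2555 (693 higher, 1862 lower) and a change of at least 1 log2 unit left 986 (263 higher, 723 lower). The first and the last limit the genes counted by construction. Quantile normalization gave 1841 higher calls; it moved the median change over all genes to 0.023, and median-ratio scaling moved it to 0.000, against -0.093 as deposited. For the difference between varieties, the mean of at least 10 FPKM left 1891 (780 higher, 1111 lower) and the log2 limit 1421 (533 higher, 888 lower). Median-ratio scaling gave 7 low oxygen genes higher and 5 secondary wall polysaccharide genes lower. The cause was not tested for the other shifts.

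Leaving out 1 library at a time gave 2877 to 3484 changed genes in ZP, 803 to 1065 higher and 2074 to 2419 lower, and 2628 to 3260 differences between varieties. Storage genes higher ranged over 10 to 20, desiccation genes higher over 7 to 13, embryo and endosperm genes higher over 2 to 5, and secondary wall polysaccharide genes lower over 5 to 7. Signs turned for 3 genes that were not called: LOC100257308 at -0.23 with quantile normalization and -0.06 to 0.14 with 1 library left out, LOC100261504 at -0.14 to 0.27 and LOC100262204 at -0.08 to 0.23. With the replicate number as a block 4129 genes changed in ZP (1243 higher, 2886 lower) and 3549 differed between varieties; the replicate differences correlated at 0.22 between ZP days 55 and 61, at 0.08 to 0.27 over all pairs of ZP days and at 0.41 to 0.73 over pairs of MH days, and the labels do not say what a shared number marks. Under the block 4CL passed (adjusted p = 0.0379) and the Rubisco gene LOC100256536 did not (adjusted p = 0.051). Depth and 2 libraries a group limit what low genes can show.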

Other observations

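Genes of salicylate and EDS1 signalling, a branch of plant immunity, were looked at after their values were seen, so their counts are a description. Of 46 tested genes with such a description 26 were lower and 4 higher in ZP at day 61, with a median of -0.46, while in MH 5 were lower and 3 higher. The 26 include the 9 senescence-associated carboxylesterase genes and the DOWNY MILDEW RESISTANCE 6-like gene described above, so these counts are not separate from the earlier ones. EDS1, the lipase-like hub of that branch in Arabidopsis, had 10.2 and 9.37 FPKM at day 61, against 35.2 and 29.5 FPKM at day 55 (-1.62 ± 0.14). A further EDS1 gene (LOC100250236) had 2.33 and 2.35 FPKM, against 17.9 and 16.4 FPKM (-2.44 ± 0.11), and an EDS1L-like gene (LOC100257078) had 4.84 and 4.07 FPKM, against 31.8 and 28.6 FPKM (-2.52 ± 0.17). A salicylate carboxymethyltransferase gene (LOC100258209) changed by -1.81 ± 0.19. Isochorismate synthase 2 (LOC100243400), which overlaps another gene and whose class feeds salicylate synthesis in Arabidopsis, was low throughout, at 1.53 and 1.57 FPKM, against 2.64 and 2.92 FPKM (-0.57 ± 0.10).

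Clock and photoreceptor genes were also looked at after their values were seen. Of 31 tested members 8 were higher and 7 lower in ZP at day 61, and 5 and 7 in MH. Over all tested genes 9.19% were higher and 22.2% lower in ZP, and 9.22% and 14.4% in MH. Adagio protein 3 (LOC100255972), a blue-light receptor of the clock, had 41.8 and 42.6 FPKM, against 9.84 and 12 FPKM (1.87 ± 0.12). Cold-regulated protein 27 (LOC100255572) had 10.1 and 10 FPKM, against 1.68 and 2.17 FPKM (1.92 ± 0.13), and a second copy (LOC100854716) changed by 1.23 ± 0.18. LUX (LOC100253567) changed by 1.12 ± 0.20 and PRR95 (LOC100853219) by 1.13 ± 0.15. GIGANTEA (LOC100254197) had 62.2 and 59.5 FPKM, against 119 and 91.1 FPKM (-0.77 ± 0.18; without the first library of day 55, -0.58, adjusted p = 0.061), LNK2 (LOC100248068) changed by -1.18 ± 0.24 and PRR37 (LOC100256937) by -0.86 ± 0.19. The labels used here give no hour of sampling.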
